A study of Homo sapiens with 12 samples.

Results

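Transcript levels of the BRCA1-A complex, of BRCA1 and BARD1, and of the ubiquitin ligases that act at broken DNA were examined in BT549, a triple-negative breast cancer cell line. The set held 10 of the 17958 genes with a value. They were chosen by name but with earlier results of these data known, so they are not a set fixed before the data were seen. Each was read by the only transcript cluster (a set of array probes summarised into 1 value) that carried its symbol alone in the probe annotation. BABAM1 was singled out against its partners with results of these arrays in view. It was treated as chosen for its low values on the ERβ2 siRNA arrays, so that its values in comparisons with the ERβ2 siRNA or control siRNA arrays, and in the difference between both ERβ2 effects, are a description and carry no test.

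Control siRNA or siRNA against ERβ2, a splice variant of estrogen receptor β, was introduced into the cells and RNA was taken after 48 h. In the other experiment the cells received pcDNA3 as empty vector (EV) or pcDNA3 with FLAG-tagged ERβ2 cDNA (ERβ2 plasmid), and RNA was taken after 24 h. Each of the 4 groups had 3 biological replicates on 1 Affymetrix Human Gene 1.1 ST array each. All groups came from the same cell line by transient transfection, and no source used here gives the ERβ2 siRNA sequence behind these arrays.

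BRCA1-A is a complex of ABRAXAS1, UIMC1 (RAP80), BRCC3 (BRCC36), BABAM2 (BRE) and BABAM1 (MERIT40). At a DNA break RNF8 and RNF168 attach ubiquitin to chromatin, UIMC1 binds the ubiquitin chains and brings the complex, BRCC3 trims the chains, and ABRAXAS1 holds BRCA1, which with BARD1 is itself a ubiquitin ligase. BABAM1 and BABAM2 are scaffold subunits. BRCC3, BABAM1 and BABAM2 also belong to BRISC, a cytoplasmic deubiquitylase that has ABRAXAS2 in place of ABRAXAS1 and binds the metabolic enzyme SHMT2. TP53BP1 (53BP1) is recruited to the same marked chromatin and limits the resection of DNA ends that BRCA1 favours.

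The deposited values are RMA values, read as log2, and array medians lay between 5.04 and 5.14. ESR2, the gene of all ERβ isoforms, gave no check of the siRNA labels, since it changed by −0.02 on the log2 scale upon knockdown (95% confidence interval −0.22 to 0.19, limma adjusted p = 0.913). Its signal, 3.80 to 4.72, lay above that of 23.2% of genes, near that of ESR1, a dim level at which a fall may not show. With the ERβ2 plasmid its change was 0.47 (95% confidence interval 0.24 to 0.71, limma adjusted p = 0.449). Signal of the mesenchymal marker VIM lay above that of 99.6% of genes. Of the receptor genes, ESR1 and PGR lay above 19.8% and 10.1%, but ERBB2 above 68.2%. Epithelial markers were mixed, since CDH1 and EPCAM each lay above 20.2%, KRT19 above 39.9%, KRT8 above 61.3% and KRT18 above 91.4%. PTPRC and PECAM1, markers of blood and endothelial cells, lay above 9.5% and 19.5%. These are ranks of signal and not of transcript number. A gene is said to have passed where its limma p, adjusted over all genes by Benjamini and Hochberg, did not exceed 0.1. Each p-value sets a difference between groups against the spread between the 3 arrays of a group. That spread is pooled over the groups in the fit and drawn by limma toward that of all genes.

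BABAM1 was lowest upon ERβ2 knockdown. Replicates 1 to 3 read 9.38, 9.24 and 9.25 on the log2 scale with control siRNA and 7.71, 7.71 and 7.60 with ERβ2 siRNA. It was 8.99, 8.98 and 8.97 with EV and 8.98, 9.01 and 9.08 with the ERβ2 plasmid. The ERβ2 siRNA arrays lay below the other 9 arrays with no overlap. The group means, in order, were 9.29 ± 0.08 (SD, n = 3) with control siRNA, 9.02 ± 0.05 with the ERβ2 plasmid, 8.98 ± 0.01 with EV and 7.67 ± 0.06 with ERβ2 siRNA. EV and the ERβ2 plasmid did not differ beyond their spread. The log2 change upon knockdown was −1.62 (standard error 0.06, 95% confidence interval −1.76 to −1.47), which is 3.07-fold lower. By size it ranked 6 among the falls of all 17958 genes, and 19 genes changed by more when both directions are counted.

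**Figure D1:**
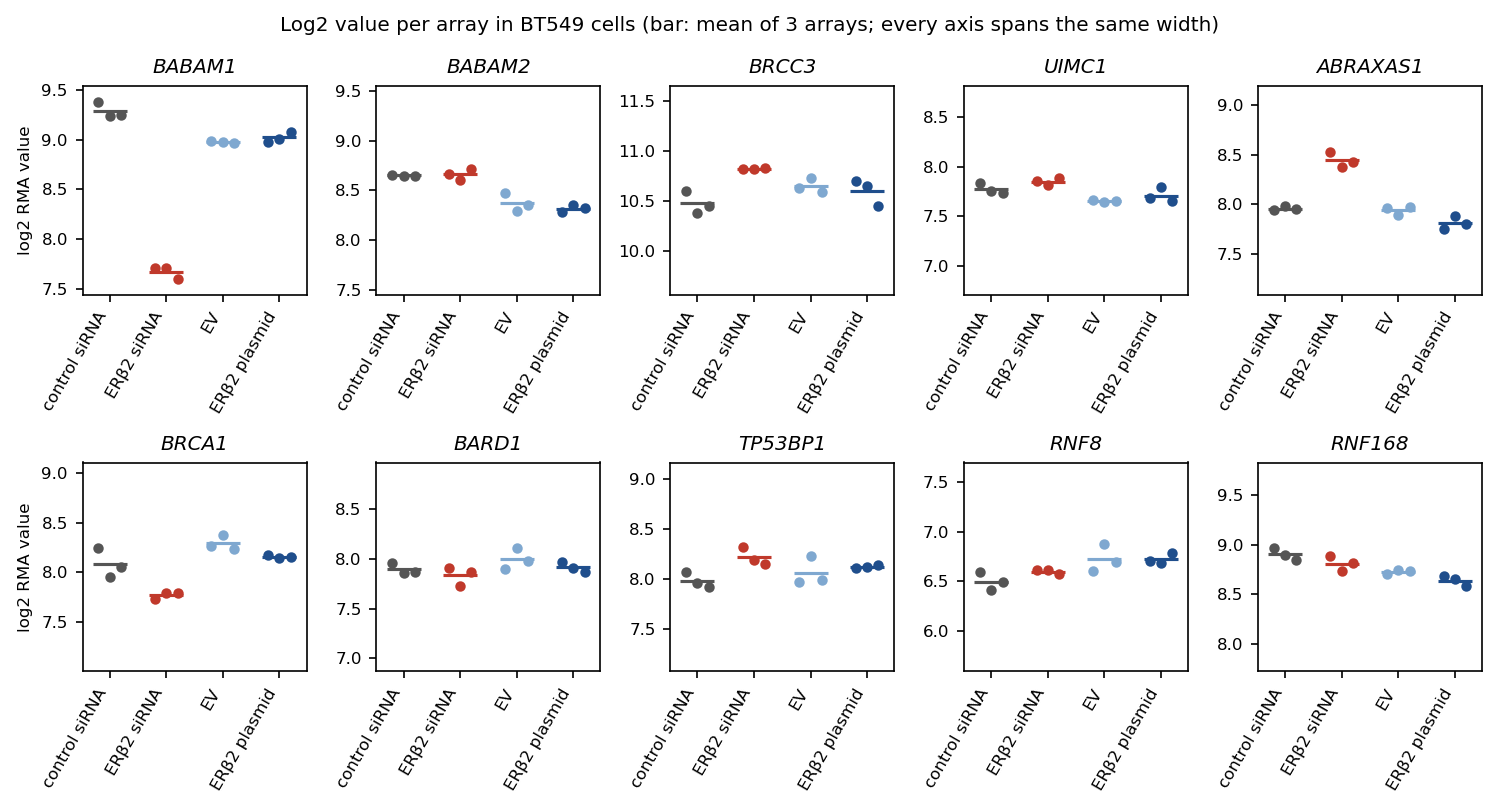
Log2 RMA value (y axis) of the 10 genes in each of the 12 arrays, by group (x axis); points are arrays, bars are means of 3 arrays, and every axis spans the same width. BABAM1 lies between 7.60 and 7.71 on the ERβ2 siRNA arrays and at 8.97 or above on all others, while the other 9 genes stay within narrower ranges.

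The promoter windows of BABAM1 and of the 3 members that rose upon knockdown are shown, but not those of BRCA1, which also fell. Each window shown is the 250 bases before the RefSeq start, 5′ to 3′ on the strand of the gene, in build GRCh38.p14. BABAM1 lies on the plus strand (chr19:17267193-17267442), BRCC3 on the plus strand (chrX:155071258-155071507), ABRAXAS1 on the minus strand (chr4:83485101-83485350) and TP53BP1 on the minus strand (chr15:43510641-43510890). Capitals mark a match to the ETS core.
BABAM1: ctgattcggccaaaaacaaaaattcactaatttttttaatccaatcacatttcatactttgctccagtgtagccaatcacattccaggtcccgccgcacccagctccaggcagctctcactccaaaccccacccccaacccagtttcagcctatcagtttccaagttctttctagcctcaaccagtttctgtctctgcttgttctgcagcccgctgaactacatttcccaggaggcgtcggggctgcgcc
BRCC3: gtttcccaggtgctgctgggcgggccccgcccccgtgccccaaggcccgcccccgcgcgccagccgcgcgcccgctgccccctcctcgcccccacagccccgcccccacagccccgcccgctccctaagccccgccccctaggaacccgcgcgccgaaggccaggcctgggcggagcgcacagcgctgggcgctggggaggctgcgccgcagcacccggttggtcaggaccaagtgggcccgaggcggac
ABRAXAS1: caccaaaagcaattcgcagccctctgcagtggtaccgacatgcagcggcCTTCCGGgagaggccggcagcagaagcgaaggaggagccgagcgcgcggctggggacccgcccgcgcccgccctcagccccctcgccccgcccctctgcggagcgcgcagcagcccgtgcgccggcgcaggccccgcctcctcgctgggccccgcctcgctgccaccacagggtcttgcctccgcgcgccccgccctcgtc
TP53BP1: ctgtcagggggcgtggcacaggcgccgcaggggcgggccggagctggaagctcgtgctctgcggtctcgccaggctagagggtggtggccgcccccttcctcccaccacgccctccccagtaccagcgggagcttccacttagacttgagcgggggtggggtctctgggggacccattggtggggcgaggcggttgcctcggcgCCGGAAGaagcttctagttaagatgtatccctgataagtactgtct

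Motifs were searched on both strands in these windows and in all 35116 windows of the RefSeq table. The ETS core CCGGAAG was found in the windows of ABRAXAS1 (positions −201 to −195 from the start, on the opposite strand), TP53BP1 (−46 to −40) and RNF168 (−88 to −82), and in 8.52% of all windows. The E2F motif TTTCGCGC (0.44% of all windows), the CHR motif TTTGAA (13.32%) and the NRF1 core GCATGCGC (2.63%) had no match in the 14 windows of the 10 genes. Only the ETS core matched, so no matches of different motifs overlapped. A match is a run of letters and was not tested as a binding site. The share of G and C was 50.4% for BABAM1, 80.4% for BRCC3, 76.4% for ABRAXAS1 and 66.4% for TP53BP1, beside a median of 58.0% over all windows. The median over the 14 windows of the 10 genes was 61.4%. Among genes not shown, it was 52.4% in both windows of BRCA1, 75.2% for BARD1, 65.2% for RNF168 and 56.8% for RNF8. The windows of UIMC1 ran from 54.8% to 73.6%, and those of BABAM2 had 28.4% and 71.6%.

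The catalytic subunit BRCC3 and the BRCA1-binding subunit ABRAXAS1 rose upon ERβ2 knockdown, the opposite direction to BABAM1. ABRAXAS1 had log2 values of 7.94, 7.98 and 7.95 with control siRNA and of 8.53, 8.38 and 8.43 with ERβ2 siRNA. The ERβ2 siRNA arrays were the highest of the 12, since the values were 7.96, 7.89 and 7.97 with EV and 7.75, 7.88 and 7.80 with the ERβ2 plasmid. The rise was 0.49 (standard error 0.06, adjusted p = 5.24e-04 from limma, 3 arrays per group), 1.40-fold. BRCC3 had values of 10.60, 10.38 and 10.45 with control siRNA and of 10.82, 10.82 and 10.83 with ERβ2 siRNA. All 3 knockdown arrays again stood above the other 9, which ran from 10.38 to 10.73. The rise of BRCC3 was 0.35 (standard error 0.07, adjusted p = 0.00579 from limma), 1.27-fold.

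The scaffold BABAM2 and the ubiquitin reader UIMC1 did not pass. BABAM2 read 8.66, 8.65 and 8.65 with control siRNA and 8.67, 8.60 and 8.72 with ERβ2 siRNA, groups that overlap. Its change was 0.01 (95% confidence interval −0.12 to 0.14, adjusted p = 0.916 from limma), and a fall of the size of that of BABAM1 lies outside this interval. UIMC1 ran from 7.73 to 7.83 with control siRNA and from 7.81 to 7.88 with ERβ2 siRNA, a change of 0.08 (95% confidence interval −0.05 to 0.20, adjusted p = 0.347 from limma). Of the 5 subunits, BABAM1 was thus the one with a lower mean upon knockdown in the deposited values. BABAM2 also lay below 0, without passing, after a repeated quantile step (−0.02), with cyclic loess (−0.02) and with each array centred on its median (−0.08). UIMC1 did so with centred arrays (−0.01).

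The distance between BABAM1 and the mean of its 4 partners, taken per array on the log2 scale, was 0.62, 0.55 and 0.56 with control siRNA. It was −1.26, −1.19 and −1.37 with ERβ2 siRNA, 0.31, 0.34 and 0.33 with EV, and 0.38, 0.34 and 0.53 with the ERβ2 plasmid. Knockdown moved this distance by −1.85 (standard error 0.06), of which the mean of the partners gave a rise of 0.23 (standard error 0.03) and BABAM1 the rest. The ERβ2 plasmid moved it by 0.09 (standard error 0.06) against EV. These distances are a description with no test, and their zero has no meaning, since signals of different probes are not comparable as levels.

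**Figure D2:**
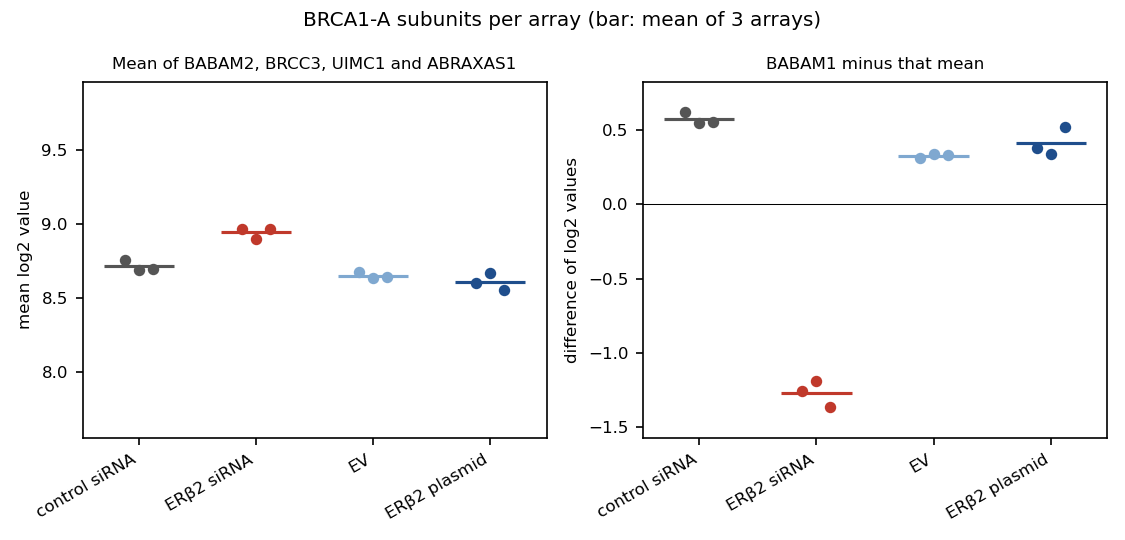
Mean log2 value of BABAM2, BRCC3, UIMC1 and ABRAXAS1 (left) and log2 value of BABAM1 minus that mean (right) in each array, by group; points are arrays and bars are means of 3. The distance lies from −1.37 to −1.19 with ERβ2 siRNA and from 0.31 to 0.62 in the other 9 arrays.

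BRCA1 fell and its partner BARD1 did not pass. BRCA1 had log2 values of 8.25, 7.95 and 8.05 with control siRNA and of 7.73, 7.79 and 7.79 with ERβ2 siRNA, groups that do not overlap. With EV it read 8.27, 8.38 and 8.24, and with the ERβ2 plasmid 8.17, 8.14 and 8.15. The knockdown arrays were the lowest of the 12. The change upon knockdown was −0.31 (standard error 0.08, adjusted p = 0.0200 from limma), 1.24-fold lower. BARD1 ran from 7.86 to 7.96 with control siRNA and from 7.73 to 7.91 with ERβ2 siRNA, with a change of −0.06 (95% confidence interval −0.21 to 0.09, adjusted p = 0.541 from limma). BRCA1 transcript is known to be highest in dividing cells. Upon knockdown 10 of 15 proliferation genes also fell, where 17.5% of all genes did. Their median log2 change was −0.21 (range −0.65 to 0.13), beside −0.03 over all genes. Among them were CCNB2 (−0.65, adjusted p = 1.41e-04), CCNA2 (−0.44, adjusted p = 0.00187), CDK1 (−0.42, adjusted p = 0.00165) and AURKB (−0.35, adjusted p = 0.00757, all from limma). Between EV and control siRNA 10 of the 15 were also lower and 2 higher (median −0.29), where 22.4% of all genes were lower and 19.2% higher. BRCA1, in contrast, was higher with EV by 0.21. The part of cell division in the value of BRCA1 was not tested, and in RNA of whole cultures fewer cycling cells and less RNA per cell cannot be told apart.

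TP53BP1 rose slightly, and the ubiquitin ligases RNF8 and RNF168 did not pass. TP53BP1 read 8.07, 7.96 and 7.92 with control siRNA and 8.32, 8.19 and 8.15 with ERβ2 siRNA, a rise of 0.24 (standard error 0.07, adjusted p = 0.0338 from limma), 1.18-fold. The groups did not overlap, but EV replicate 2, at 8.23, lay within the range of the knockdown arrays. With each array centred on its median the rise was 0.15 and the call was lost (adjusted p = 0.118). It was also lost without control siRNA replicate 3 (adjusted p = 0.106) and without ERβ2 siRNA replicate 1 (adjusted p = 0.105 from limma). RNF8, which starts the ubiquitin mark, ran from 6.41 to 6.59 with control siRNA and from 6.57 to 6.61 with ERβ2 siRNA, a change of 0.10 (95% confidence interval −0.04 to 0.24, adjusted p = 0.270 from limma). RNF168, which extends it, ran from 8.84 to 8.97 and from 8.73 to 8.88, a change of −0.09 (95% confidence interval −0.24 to 0.05, adjusted p = 0.314 from limma). RNF168 passed with the arrays centred on their median (−0.18, adjusted p = 0.0627 from limma). In that setting the median change of all genes was itself −0.12, and 6157 of all 17958 genes passed as lower.

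In all, 4 of the 9 genes other than BABAM1 passed upon knockdown, 3 higher and 1 lower, where 35.8% of all genes passed, 18.3% higher and 17.5% lower. Among all genes that passed, 51.0% were higher, and 27.1% were higher with each array centred on its median. Arrays of both groups did not overlap for the same 4 genes, where this held for 42.4% of all genes. The median log2 change of the 9 genes was 0.08, beside −0.03 over all genes. The largest change among them, that of ABRAXAS1, stayed under the 1.5-fold cut-off, which with the same test was passed by 3.25% of all genes upward and 1.26% downward.

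**Figure D3:**
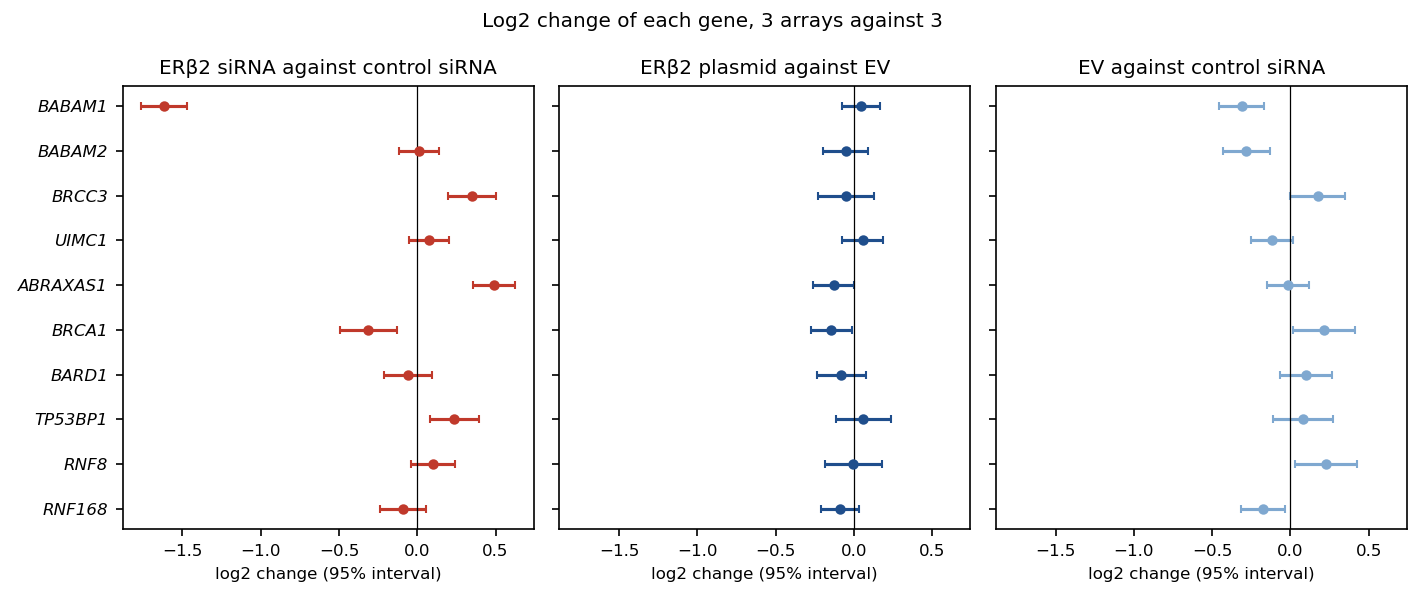
Log2 change (x axis, points) with 95% confidence interval (bars) of the 10 genes (y axis) in 3 comparisons of 3 arrays against 3. BABAM1 stands at −1.62 upon ERβ2 siRNA and at 0.04 with the ERβ2 plasmid; the intervals of the other 9 genes lie between −0.50 and 0.63 in all 3 panels.

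With the ERβ2 plasmid, none of the 10 genes passed against EV in limma, where 0.0111% of all genes passed, and 1 of the 10, BRCA1, had an unadjusted p under 0.05, as did 7.02% of all genes. By the per-gene test of the study's methods, adjusted in the same way, 0 of all 17958 genes passed, so the count of the set could only be 0 there. BABAM1 had a change of 0.04 (95% confidence interval −0.08 to 0.16, adjusted p = 0.909 from limma), an interval that holds neither a fall nor a rise of the size seen upon knockdown. BRCA1 had a change of −0.14 (95% confidence interval −0.28 to −0.01, adjusted p = 0.675) and ABRAXAS1 of −0.13 (−0.26 to 0.00, adjusted p = 0.717 from limma). The EV and ERβ2 plasmid arrays did not overlap for 3 genes, ABRAXAS1, BRCA1 and RNF168, each lower with the plasmid, where 6.67% of all genes were lower without overlap. The other changes ran from −0.09 to 0.06 on the log2 scale.

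The effects of knockdown and of the plasmid were compared in 1 limma fit over all 12 arrays. For ABRAXAS1 they differed by 0.62 (standard error 0.08, adjusted p = 1.37e-04) and for BRCC3 by 0.40 (standard error 0.10, adjusted p = 0.0183). These 2 of 9 genes passed, both higher, where 26.4% of all genes passed, 15.0% higher and 11.3% lower. For BRCA1, which was lower in both comparisons, the difference was −0.17 and did not pass (95% confidence interval −0.39 to 0.05, adjusted p = 0.263 from limma), although it passed after a repeated quantile step (adjusted p = 0.0510), with cyclic loess normalization (0.0685) and with each array centred on its median (0.0379). For TP53BP1 the difference was 0.18 (95% confidence interval −0.05 to 0.40, adjusted p = 0.269). For BABAM1 the effects lay −1.66 apart (standard error 0.08).

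The EV and control siRNA arrays are both controls, but they differ in time after transfection, in reagent and in what was introduced (plasmid or siRNA). The study's methods also give a higher confluency of the cells at plasmid transfection than at siRNA transfection. These differences come together and cannot be told apart. The mean of BABAM1 was 0.31 lower with EV on the log2 scale (a change of −0.31, standard error 0.06), a value given with no test because the control siRNA arrays are among those on which BABAM1 was taken as chosen. Its scaffold partner BABAM2 was lower by a change of −0.28 (limma adjusted p = 0.0118, standard error 0.07). The values of BABAM2 were 8.47, 8.29 and 8.35 with EV, all below the control siRNA arrays. RNF168 (−0.18, adjusted p = 0.0569) was also lower, while RNF8 (0.23, adjusted p = 0.0767) and BRCA1 (0.21, adjusted p = 0.0923 from limma) were higher, so that 4 of the 9 genes other than BABAM1 passed, where 41.6% of all genes did, 19.2% higher and 22.4% lower. Of all genes that passed, 46.1% were higher, and 17.7% with each array centred on its median, a setting in which BRCA1 and RNF8 did not pass. BRCC3 and UIMC1 passed in addition without dim genes, with cyclic loess and with 1 fit for all groups, which gave 6 of 9. The calls of RNF168, RNF8 and BRCA1 were lost with the replicate number as a block (adjusted p = 0.121, 0.135 and 0.136), and of the 6 fits that left out 1 array BRCA1 passed only without control siRNA replicate 1, RNF8 only without that array or EV replicate 1, and RNF168 only without control siRNA replicate 3 or EV replicate 2. This comparison shares the control siRNA arrays with the knockdown comparison and the EV arrays with the plasmid comparison.

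ABRAXAS2, the scaffold particular to BRISC, and SHMT2, the enzyme it binds, fell upon knockdown, where 17.5% of all genes did. SHMT2, an enzyme of serine metabolism, was lower by a log2 change of −0.38 (limma adjusted p = 0.00211, standard error 0.06), and ABRAXAS2 of −0.29 (standard error 0.08, adjusted p = 0.0264). With the ERβ2 plasmid both stayed within −0.04 to 0.03 and did not pass, but the difference of effects passed for SHMT2 (−0.40, limma adjusted p = 0.00351) and not for ABRAXAS2 (−0.25, adjusted p = 0.105). SHMT2 was also lower with EV than with control siRNA (−0.22, adjusted p = 0.0411). ABRAXAS1 and ABRAXAS2 thus lay on opposite sides of 0 upon knockdown, each past the test.

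Other genes of the break response came from lists chosen with earlier results of these data known, and moved both ways upon knockdown. Their counts stand beside the 35.8% of all genes that passed upon knockdown, 18.3% higher and 17.5% lower, and nothing particular to a list is read from them. Of 12 genes of break sensing, 4 rose, 3 fell and 5 did not pass, with a median log2 change of −0.01. MDC1 (0.20), named here after its values were seen, was among the 4 and lost its call with repeated quantile normalization (adjusted p = 0.106) and with centred arrays (adjusted p = 0.193). NBN, a subunit of the break-binding MRN complex, rose by 0.66 (standard error 0.08, adjusted p = 7.07e-04), and the kinases ATR and ATM by 0.33 and 0.30 (adjusted p = 0.00227 and 0.0118). H2AX, the histone whose phosphorylation brings RNF8 to breaks through MDC1, changed by −0.43 (limma adjusted p = 0.00231, standard error 0.07). NBN and H2AX also differed between the controls. With EV, NBN was higher by 1.16 (adjusted p = 3.15e-05) and H2AX lower by a change of −0.51 (adjusted p = 0.00102 from limma). ATR was likewise higher with EV by 0.21 (adjusted p = 0.0313), while ATM did not pass (0.05, adjusted p = 0.624 from limma). Of 10 genes of ubiquitin conjugation and its control, 2 rose upon knockdown, 1 fell and 7 did not pass (median 0.00), again beside 35.8% of all genes. UBE2V2, a partner of the ubiquitin-conjugating enzyme UBE2N, rose by 0.85 (standard error 0.07, adjusted p = 7.30e-05), L3MBTL1, a reader of methylated histone, by 0.27 (adjusted p = 0.0289, and 0.110 with centred arrays), and L3MBTL2, a target of RNF8, had a change of −0.19 (adjusted p = 0.0999 from limma). UBE2V2 (0.65, adjusted p = 2.04e-04) and L3MBTL1 (0.41, adjusted p = 0.00225) were also higher with EV than with control siRNA. L3MBTL2 did not pass there (0.15, adjusted p = 0.180, all from limma).

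Of 11 effectors and regulators of TP53BP1, 1 rose, 6 fell and 4 did not pass, with a median log2 change of −0.14. SHLD2, a subunit of the shieldin complex that protects DNA ends, rose by 0.84 (standard error 0.09, adjusted p = 2.39e-04). Its shieldin partner MAD2L2 had a change of −0.30 (adjusted p = 0.00426), the TP53BP1-binding protein RIF1 of −0.27 (adjusted p = 0.0202), and the light chain DYNLL1, which binds TP53BP1, of −0.32 (adjusted p = 0.0126 from limma). Against control siRNA, EV was also higher for SHLD2 (0.40, adjusted p = 0.00383) and RIF1 (0.16, adjusted p = 0.0712). It was lower for MAD2L2 (−0.18, adjusted p = 0.0704), and DYNLL1 did not pass (0.01, adjusted p = 0.897, all from limma). Of 12 deubiquitylases, 1 rose upon knockdown, 3 fell and 8 did not pass (median 0.02), beside the same 35.8% of all genes. OTUB2 (−0.23, adjusted p = 0.0280), USP44 (−0.22, adjusted p = 0.0420) and OTUB1 (−0.16, adjusted p = 0.0506) were lower and USP48 (0.21, adjusted p = 0.0254 from limma) was higher, and these enzymes remove ubiquitin or limit its attachment. The call of USP44 was lost with repeated quantile normalization and cyclic loess (adjusted p = 0.125 and 0.132 from limma). That of USP48 was lost with centred arrays (adjusted p = 0.167 from limma), where 5 of the 12 were lower and none higher. With centred arrays 6157 of all genes passed as lower and 2290 as higher, so nothing particular to the deubiquitylases is read from that count. Between the controls OTUB2 (−0.95, adjusted p = 2.97e-05), USP44 (−0.25, adjusted p = 0.0348) and OTUB1 (−0.17, adjusted p = 0.0551) were also lower with EV. USP48 did not pass there (−0.09, adjusted p = 0.341, all from limma).

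Of 7 genes of BRCA1 partners and neighbours, 6 fell upon knockdown, as BRCA1 did, and 1 did not pass, with a median log2 change of −0.29. BRIP1, the helicase of the BRCA1-B complex, changed by −0.76, the most of the 7 (standard error 0.08, adjusted p = 2.18e-04). PALB2, which links BRCA1 to homologous recombination, had a change of −0.29 (adjusted p = 0.00832), BRAP, a BRCA1-binding protein of the cytoplasm, of −0.29 (adjusted p = 0.0314), and NBR2, the non-coding gene next to BRCA1, of −0.35 (adjusted p = 0.0105 from limma).

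**Figure D4:**
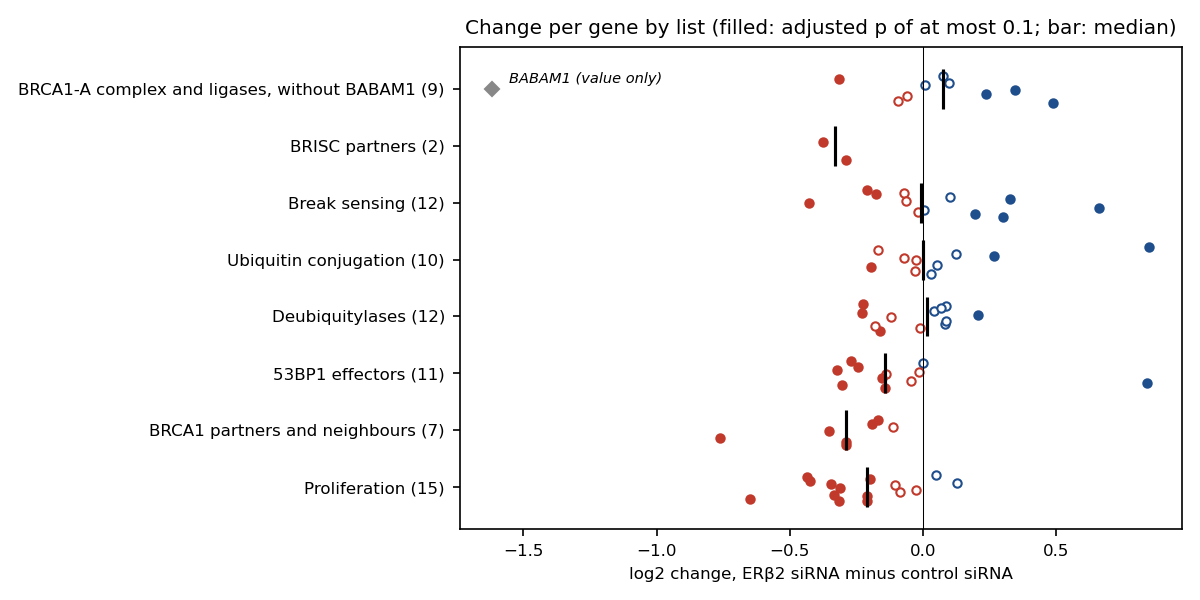
Log2 change upon ERβ2 siRNA (x axis) of each gene by list (y axis, number of genes in brackets); filled points passed at an adjusted p of at most 0.1, red lies below 0, blue at or above 0, the black bar is the median, and the grey diamond is BABAM1, shown as a value only. The medians run from −0.33 for the 2 BRISC partners to 0.08 for the 9 genes without BABAM1.

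The genes whose pattern over the 12 arrays was most like that of BABAM1 were SLC35A4 (Pearson r = 0.995), SMARCD1 (0.993), SAP130 (0.992), RFC3 (0.992) and SNX12 (0.991). Their log2 changes upon knockdown ran from −1.23 for SMARCD1 to −0.54 for SAP130. For BRCA1 they were KAT5 (0.969), PALB2 (0.968), SCAMP2 (0.967), ZBTB38 (0.965) and WDR89 (0.965), with knockdown changes from −0.38 to −0.16. Among the 10 genes themselves, ABRAXAS1 ran most nearly opposite to BABAM1 (r = −0.91) and BRCA1 most nearly with it (0.80). These correlations describe 12 arrays that share the same 4 groups, and no test was made of them.

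The genes beside BABAM1 on the chromosome, picked by position after its values were seen, had changes from −0.65 to −0.02 upon knockdown, beside the −1.62 of BABAM1, given with no test. On one side USHBP1 had a log2 change of −0.18 (95% confidence interval −0.39 to 0.02, adjusted p = 0.165), NR2F6 of −0.51 (adjusted p = 4.04e-04) and OCEL1 of −0.02 (adjusted p = 0.880 from limma). On the other side ABHD8 had −0.21 (adjusted p = 0.0387), MRPL34 −0.03 (adjusted p = 0.797) and DDA1 −0.65 (95% confidence interval −0.78 to −0.53, adjusted p = 7.30e-05 from limma). Of the 6 measured genes nearest to ABRAXAS1 in RefSeq order, 3 passed and rose, where 18.3% of all genes did. NKX6-1 and CDS1 lie much farther from it than the other 4. HELQ had a change of 0.02 (95% confidence interval −0.19 to 0.24, adjusted p = 0.879), HPSE rose by 0.56 (adjusted p = 1.84e-04) and GPAT3 by 1.71 (standard error 0.07, adjusted p = 5.48e-06 from limma). COQ2 had −0.12 (adjusted p = 0.139), NKX6-1 0.40 (adjusted p = 0.0117) and CDS1 −0.20 (adjusted p = 0.169). ANKLE1 next to BABAM1 and MRPS18C next to ABRAXAS1 share their clusters with the member and were not used here.

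**Figure D5:**
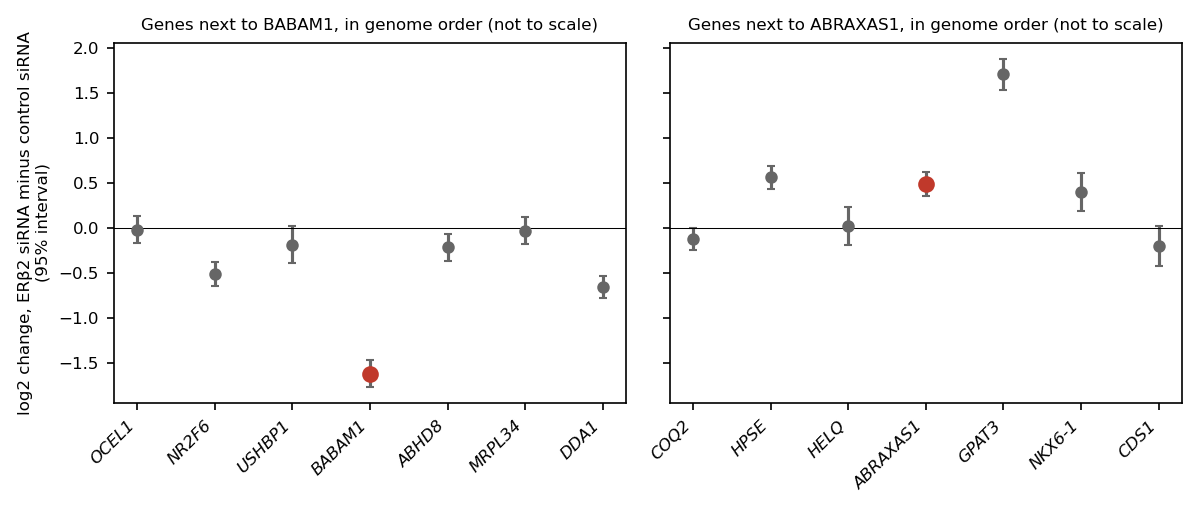
Log2 change upon ERβ2 siRNA (y axis, points) with 95% confidence interval (bars) of BABAM1 and ABRAXAS1 (red) and of the 3 measured genes on each side (grey), in genome order and not to scale, with NKX6-1 and CDS1 much farther off than the rest. BABAM1 at −1.62 lies below its neighbours, of which DDA1 is lowest at −0.65, while GPAT3 at 1.71 lies above ABRAXAS1 at 0.49.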

How the data were processed

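The deposited values were log2 values, for which the authors ran RMA in Expression Console of Affymetrix (background correction, normalization between arrays, summary of probes). Neither the version, the base of the logarithm nor a genome build is given in the sources used here. Base 2 was taken, the base RMA gives. RMA sets arrays to a common distribution, so a change shared by most genes would not show. Arrays have no read depth, and precision is set by 3 arrays per group.

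Of 33297 transcript clusters, 19181 had 1 symbol in the probe annotation, and 19143 of these had a gene ID in the RefSeq table (GRCh38.p14), from which names and gene order were taken. Each of 17958 genes was read by its brightest such cluster, by the mean of all 12 arrays. Each of the 10 genes had 1 such cluster. BABAM1 and ABRAXAS1 had 1 further cluster shared with another gene, which was not used. No filter on low values was set, so all 10 genes entered every fit. No pair of arrays held identical values.

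Groups were compared with limma 3.58.1 (lmFit and eBayes) in R 4.3.3, 3 arrays against 3, and the difference of effects in 1 fit over 12 arrays. Benjamini-Hochberg adjustment covered all genes in each comparison. The fits were tested on simulated data. Each context list gave its counts, its median, and up to 4 genes with the largest change among those that passed upon knockdown, and the 5 genes most correlated with BABAM1 and with BRCA1 were named. The members and lists were chosen with earlier results of these data known. Of 80 context genes, 11 had no cluster of their own and are not analysed here. Promoter sequences and their coordinates came from RefSeq (GRCh38.p14) and all 10 genes matched. The settings of the alternatives were the choice of clusters, a filter on dim genes (mean log2 under 5), 3 normalizations, the t-test of the methods, a trended robust prior, 1 fit for all groups, a stricter threshold, the replicate block, and leaving out each array.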

Additional observations from a re-analysis of the deposited data

How the results depend on the processing

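Of 640 values of single genes under another setting, 597 kept their side of the threshold (or, for BABAM1 upon knockdown and in the difference of effects, moved within the spread between replicates), 25 lost and 16 gained the call, 2 of BABAM1 moved by more than that spread, and none that had passed changed sign (35 that passed in neither setting did). Values of BABAM1 between EV and control siRNA were counted here by the threshold, although no test of them is used. Upon ERβ2 knockdown 4 genes passed in every alternative but those that left out 1 array (3 to 4 genes). BRCC3, ABRAXAS1 and BRCA1 passed in all of them, and with arrays centred on their median RNF168 (adjusted p = 0.0627) took the place of TP53BP1 (0.118). Of all 17958 genes, 6429 passed in the main fit, 4877 at an adjusted p under 0.05 and 8447 with centred arrays. Without dim genes 6070 of 11389 passed. The steady count of 4 thus stood beside shares of all genes that varied, and says little about the set. The change of BABAM1 ran from −1.70 (centred arrays) to −1.57. Centring moved the median of all genes from −0.06 to −0.21 between EV and control siRNA, and from −0.02 to −0.14 in the difference of effects, where the share of calls that were higher went from 57.0% to 27.2%. Cyclic loess left it at 54.5% upon knockdown. With the ERβ2 plasmid no gene of the set passed in any setting run, including each left-out array (0 to 0). From 0 to 44 of all genes passed in these settings, so a count of 0 says little about the set. In the difference of effects BRCC3 and ABRAXAS1 passed throughout (2 to 2 genes without 1 array, at most 3 elsewhere). Between EV and control siRNA 4 of the 9 genes other than BABAM1, which carries no test there, passed, where 41.6% of all genes did. This count was 1 at an adjusted p under 0.05 and with the replicate block, and between 1 and 4 without 1 array. It was 3 after quantile normalization (7594 of all 17958 genes passed) and by the t-test of the methods (5812). It was 5 with a trended robust prior (7697), and 6 with cyclic loess (7096) and with 1 fit for all groups (8577). Without dim genes it was also 6, where 6294 of 11389 genes passed. BABAM2 passed in each of them. The distance of BABAM1 from its partners there, −0.25, became −0.21 after quantile normalization and −0.16 with the median of the partners (−0.26 to −0.23 without 1 array). Deviations of same-numbered arrays correlated by 0.01 to 0.22 in the knockdown comparison, and those of differently numbered arrays by −0.19 to 0.06. In the plasmid comparison the ranges were −0.14 to 0.10 and −0.13 to 0.19. The numbers were not taken as pairs, but these values do not settle whether the knockdown arrays were paired. The replicate block left the counts of the knockdown comparison at 4, of the plasmid comparison at 0 and of the difference at 2. Upon knockdown 6891 of all genes passed with the block and 6429 without it. No gene of the set had another cluster of its own, so that alternative gave no value. Signal limits none of the 10 genes to the dim end, the lowest being RNF8, above 52.3% of genes.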
